A study of Homo sapiens with 12 samples.

Results

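Neuronal activity-induced genes were followed in KELLY cells, an established human neuroblastoma line with adrenergic, sympathetic-like character and amplified MYCN. The set is 8 named genes, NPAS4, NR4A1, NR4A2, NR4A3, ARC, BDNF, HOMER1 and CREM, found by symbol among the 55771 genes of the deposited table, each with 1 row. The 12 libraries form 3 groups of 4: cells given a control oligonucleotide, cells given the BPS1 oligonucleotide and cells given the BPS2 oligonucleotide. In every group the oligonucleotide was a morpholino carried by a DNA leash in a lipid complex at 50 nM. Cells of all groups were plated for 24 h in 10% serum, moved to 4% serum and lysed 48 h after transfection, and total RNA was depleted of ribosomal RNA and read as single 100-base reads. The series text concerns the transcripts that follow a rise in NEAT1_2, the long form of NEAT1 that scaffolds the nuclear bodies called paraspeckles. All libraries come from a single cell line, and no label states whether the replicates were separate cultures. The p-values here therefore rest on the scatter among these libraries alone, and that scatter may be technical. The BPS1 replicate 3 column is spelled BSP1 in the file, and BPS2 columns were matched by sample title because the descriptions of those samples use another name.

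Activity-induced genes are switched on when a neuron depolarises or is stimulated through cAMP. Calcium and cAMP signals reach the nucleus through kinases that activate CREB, a factor that binds the cAMP response element (CRE), and through MEF2 and SRF. The early wave encodes transcription factors such as NPAS4 and the NR4A orphan nuclear receptors, and the proteins made later act at synapses, as ARC, HOMER1 and BDNF do. CREM belongs to the CREB family and also has an internal promoter that makes ICER, a short repressor that feeds back on CRE-driven genes.

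Promoter windows from RefSeq (GRCh38.p14, 250 bases before to 50 after each annotated start) were held for 6 of the 8 genes, and NR4A2 and ARC had no entry. The stretches below are shown because they hold CRE letters of genes described here. The letters TGACG, the core of the CRE, were searched on both strands, where the other strand reads CGTCA. The full palindrome TGACGTCA contains that core on each strand. Capitals mark the matches, and every stretch reads 5′ to 3′ along the gene.
NPAS4: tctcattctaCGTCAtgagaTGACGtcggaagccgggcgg
NR4A3: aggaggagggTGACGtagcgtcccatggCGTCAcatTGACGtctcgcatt
CREM: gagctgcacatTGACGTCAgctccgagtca
BDNF: atatgacagcgcaCGTCAaggcaccgtgga
The NPAS4 stretch is chr11:66420854-66420893 on the plus strand, upstream of the start at 66421004. The NR4A3 stretch is chr9:99821766-99821815 on the plus strand, upstream of the start at 99821885. The CREM stretch is chr10:35195841-35195870 on the plus strand, at internal starts (35195850 and 35195902) within the gene, and it holds the full palindrome. The BDNF stretch is chr11:27701652-27701681 on the minus strand, upstream of an internal start at 27701621. The core was present in 24.6% of all 35116 windows and the full palindrome in 1.85%. Counted by gene, over all windows of a gene, the shares were 28.4% and 2.25% of 27305 genes. CREM had 7 windows, BDNF 5, NPAS4 2 and NR4A3 1. Neither form was found in the 2 windows held for NR4A1 or in the window of HOMER1. A match is a description of letters, not a measured binding site.

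NR4A1 and NPAS4 were the genes of the set that rose against control. NR4A1 rose about 1.5-fold with each oligonucleotide, and NPAS4 rose 2.61-fold with BPS2. CREM was higher with BPS2 than with BPS1 (1.35-fold). No gene of the set fell beyond the limma test, where 1 gene per comparison was lower at an unadjusted p under 0.05: NR4A3 in BPS1, NR4A3 in BPS2, and NR4A2 between BPS2 and BPS1. With BPS1, 1 of the 8 passed against control, upward, where 8.60% of the 20454 genes tested passed, 4.29% upward and 4.32% downward, so that 1 of 8 is near the background. With BPS2, 2 of the 8 passed, both upward, where 1.21% of all genes passed, 0.821% upward and 0.386% downward. Between BPS2 and BPS1, 1 of the 8 passed, higher in BPS2, where 3.93% of all genes passed, 2.30% higher and 1.63% lower. The median log2 fold change over the 8 genes was 0.15 in BPS1 and 0.26 in BPS2, beside -0.00036 and 0.0025 over all genes tested. All 8 genes met the level needed for testing, which was 10 or more in 4 or more libraries. Passing means a Benjamini-Hochberg adjusted p under 0.05 in a limma fit of log2(value + 1) across all 12 libraries, and fold changes on that scale understate the change of low genes. Values are normalized counts, given as mean ± SD (n = 4), and log2 fold changes carry the standard error of the fit. In bulk RNA, more RNA per cell and more cells making it cannot be told apart.

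**Figure D1:**
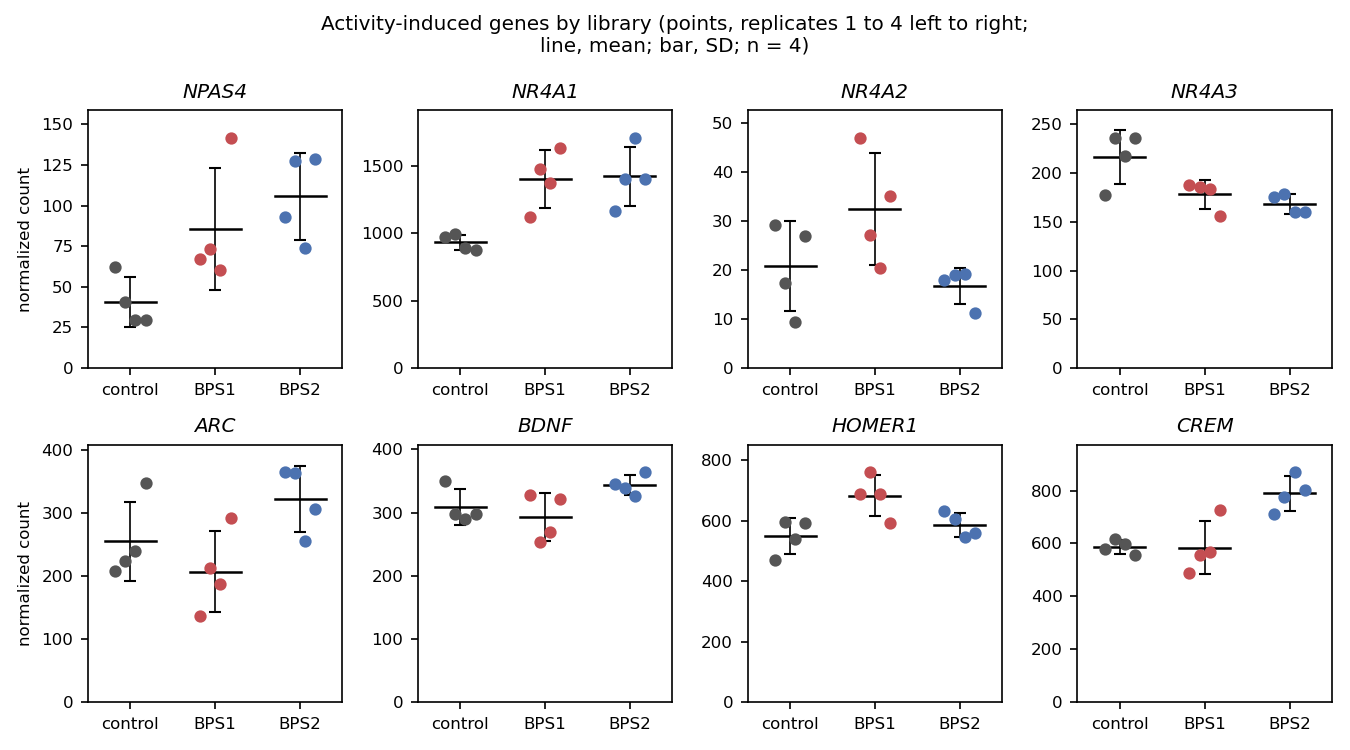
Normalized counts of the 8 activity-induced genes in every library (points), with group mean (line) and SD (bar), n = 4 per group. Each panel has its own vertical axis from 0. The 4 control libraries of NR4A1 lie between 877 and 995, below all BPS1 and BPS2 libraries, and CREM is at 712 to 869 in BPS2.

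The cells carried the marker genes of the labelled line. All 12 adrenergic markers were detected, among them MYCN at 71302 to 92957. Of 14 markers of other cells, the Schwann cell factor SOX10 and the epithelial keratin KRT5 had medians of 0. The summed level of those 14 was 3323 to 4507 in control, 3659 to 4343 in BPS1 and 3367 to 4009 in BPS2, mostly PDGFRB and COL1A1. COL1A1 rose in BPS2 (0.46 ± 0.07, limma adjusted p = 0.00706), but not with the GC trend removed (0.41, limma adjusted p = 0.0578). NEAT1, the gene the series is about, averaged 6879 ± 264 in control and fell to 2024 ± 420 with BPS1 and 4262 ± 412 with BPS2 (limma adjusted p = 6.00e-06 and 0.0239, the second call lost without 7 single libraries, up to 0.0907 without BPS2 replicate 3). Its single row does not separate NEAT1_2 from the short form. The adrenergic markers were not level between groups: in BPS1 5 of 12 fell and 2 rose, where 4.32% and 4.29% of all genes did, and in BPS2 1 fell, where 0.386% of all genes did. Their part in the results below was not tested. Library totals were 29.6 to 33.3 M. BPS1 replicate 4 and control replicate 1 stood apart. Their deviation from the gene median had an SD of 0.594 and 0.471, against 0.377 to 0.425 elsewhere, and it rose most with transcript GC content (Spearman's rho across genes of 0.351 and 0.231, against -0.223 to 0.207). Transcript GC content was 61.4% for NPAS4, 62.0% for NR4A1 and 66.3% for ARC, beside a median of 50.1% over 14159 protein-coding genes tested, and 54.3% for NR4A2, 50.5% for NR4A3, 44.2% for CREM, 41.7% for BDNF and 40.9% for HOMER1. For the 8 genes, results are therefore also given without either or both of these libraries, or with the GC trend of each library removed, where that changes a call. Of 10 nuclear and mitochondrial RNAs read as signs of RNA quality, 5 fell in BPS1 and 1 in BPS2. Beside these stand the same 4.32% and 0.386% of all genes. MALAT1 was at 14124 in control replicate 1 and at 5515 to 7150 in the other controls. It was at 3759 to 4689 in BPS1 and at 4628 to 5523 in BPS2. MALAT1 fell in BPS1 (-0.87, limma adjusted p = 0.0255, passing in 22 of 24 alternatives) and did not pass in BPS2 (-0.63, limma adjusted p = 0.245). The part of these RNAs was not tested either.

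NR4A1 encodes an orphan nuclear receptor (Nur77), an immediate early factor that acts without a known natural ligand. Its gene (ENSG00000123358) lies on chromosome 12 from 52022832 to 52059507 on the plus strand in GENCODE release 29. Listed by replicate number, control held 969, 995, 893 and 877, BPS1 held 1123, 1478, 1376 and 1632, and BPS2 held 1168, 1405, 1708 and 1405. Every treated library was above every control library. The control mean of 934 ± 57.3 compares with 1402 ± 214 for BPS1 and 1422 ± 221 for BPS2. On the log2 scale BPS1 exceeded control by 0.58 ± 0.13 (limma adjusted p = 0.0134), and BPS2 exceeded it by 0.60 ± 0.13 (limma adjusted p = 0.0399). The oligonucleotides gave near-equal levels, with BPS2 minus BPS1 at 0.02 on the log2 scale and a 95% interval of -0.25 to 0.29. The BPS1 rise passed under all 24 alternatives, at 0.50 to 0.68. The BPS2 rise passed under 13 of 24. It kept its size (0.50 to 0.69), and among single omissions its call held without BPS1 replicate 1, BPS1 replicate 4 or BPS2 replicate 1 and was lost without any of the other 9 (limma adjusted p up to 0.135, without BPS2 replicate 3).

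NPAS4 encodes a neuron-specific transcription factor that calcium entry induces and that pairs with ARNT proteins. The gene (ENSG00000174576) lies on chromosome 11 from 66421004 to 66426707 on the plus strand. Control libraries held 62.4, 40.7, 29.5 and 29.5, BPS1 libraries 67.1, 73.2, 60.5 and 142, and BPS2 libraries 92.9, 127, 73.9 and 128. All BPS2 libraries were above all control libraries, whereas BPS1 overlapped control because BPS1 replicate 3 was just under control replicate 1. The highest library of each of those groups, control replicate 1 and BPS1 replicate 4, is the library that stood apart. The NPAS4 mean rose from 40.5 ± 15.5 in control to 106 ± 26.9 in BPS2 (log2 fold change 1.39 ± 0.30, limma adjusted p = 0.0453). In BPS1 it was 85.6 ± 37.7, a difference of 1.04 ± 0.30 that lay just outside the threshold (limma adjusted p = 0.0505). That BPS1 difference passed when both of those libraries were omitted (1.00, limma adjusted p = 0.0131), without control replicate 1 alone (1.27, limma adjusted p = 0.0210) and with the GC trend removed (0.97, limma adjusted p = 0.0333), and it was 0.77 (limma adjusted p = 0.0835) without BPS1 replicate 4 alone. The BPS1 difference passed in 5 of 24 alternatives and in 1 of 12 single omissions. Its limma adjusted p was up to 0.136, without control replicate 3. Of all genes, 13.7% passed in BPS1 with both libraries omitted, beside 8.60% in the reported fit. The BPS2 rise passed under 12 of 24 alternatives at 1.27 to 1.62. Among single omissions its call held only without control replicate 1 or BPS1 replicate 4, and was lost without any of the other 10 (limma adjusted p up to 0.154, without BPS2 replicate 4). BPS2 was 0.35 above BPS1 on the log2 scale (95% interval -0.30 to 1.00), so a difference between the oligonucleotides was not shown.

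Neither of the other NR4A receptors passed against control. NR4A3 (NOR-1, ENSG00000119508, chromosome 9, 99821855 to 99866891, plus strand) held 177, 235, 217 and 236 in control, 188, 185, 183 and 156 in BPS1, and 176, 178, 160 and 160 in BPS2. All treated libraries lay below control replicates 2, 3 and 4 and on both sides of control replicate 1. BPS1 minus control was -0.27 ± 0.11 (limma adjusted p = 0.171), and BPS2 minus control was -0.35 ± 0.11 (limma adjusted p = 0.212). Without control replicate 1 and BPS1 replicate 4 the difference in BPS2 was -0.44 and passed (limma adjusted p = 0.0114). In BPS1 it was then -0.31 and missed the threshold (limma adjusted p = 0.0510). With those libraries omitted 9.54% of all genes passed in BPS2, beside 1.21% in the reported fit. The NR4A3 difference in BPS2 passed in 2 of 24 alternatives and in 0 of 12 single omissions. Its limma adjusted p was up to 0.445, without BPS2 replicate 3. The NR4A3 difference in BPS1 passed in 1 of 24.

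The ratio of NR4A1 to NR4A3 within a library does not depend on how libraries were scaled, but it keeps any GC trend of a library. It was 5.47, 4.23, 4.12 and 3.72 in control, 5.98, 7.98, 7.51 and 10.5 in BPS1, and 6.64, 7.88, 10.7 and 8.79 in BPS2. Control ratios were below every treated ratio, with group means of 4.38 ± 0.755, 7.98 ± 1.86 and 8.50 ± 1.71. Among controls the ratio was highest in control replicate 1, and among BPS1 libraries in BPS1 replicate 4, the libraries that stood apart. Transcript GC content is 62.0% for NR4A1 and 50.5% for NR4A3, and its part in the ratio was not tested. This ratio was chosen after its values were seen and has no test.

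NR4A2 (Nurr1, ENSG00000153234, chromosome 2, 156324432 to 156342348, minus strand), the receptor known from dopamine neurons, was near the lower limit of the table. It held 29.3, 17.4, 9.30 and 27.0 in control, 47.0, 27.1, 20.5 and 35.2 in BPS1, and 17.9, 18.9, 19.1 and 11.3 in BPS2. Every BPS2 library was below every BPS1 library, and control overlapped both. Groups that do not overlap were seen in that direction in 5.80% of all genes, and in the other direction in 6.08%. BPS2 minus BPS1 was -0.87 ± 0.35 (limma adjusted p = 0.221), with a 95% interval of -1.63 to -0.11, and BPS2 minus control was -0.20 ± 0.35 (limma adjusted p = 0.888). BPS1 minus control was 0.67 ± 0.35 (limma adjusted p = 0.287), with a 95% interval of -0.09 to 1.44 that includes both no change and a rise as large as that of NR4A1.

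CREM (ENSG00000095794, chromosome 10, 35126791 to 35212958, plus strand) differed between the oligonucleotides, and its higher level in BPS2 than in control did not pass. Control libraries held 577, 618, 596 and 555, BPS1 libraries 490, 555, 568 and 725, and BPS2 libraries 712, 774, 869 and 801. BPS2 lay above all controls, whereas BPS1 spread from below the controls in replicate 1 to above them in replicate 4, the BPS1 library that exceeded BPS2 replicate 1. Means were 587 ± 26.7, 585 ± 99.8 and 789 ± 65.0. BPS2 was 0.44 ± 0.11 above BPS1 (limma adjusted p = 0.0435) and 0.42 ± 0.11 above control (limma adjusted p = 0.107). Without BPS1 replicate 4 both passed, at 0.55 (limma adjusted p = 0.00253) and 0.42 (limma adjusted p = 0.0145). In that setting 8.63% and 2.63% of all genes passed, beside 3.93% and 1.21% in the reported fit. The difference between BPS2 and control passed in 4 of 24 alternatives and in 1 of 12 single omissions. The call between BPS2 and BPS1 held in 9 of 24 alternatives, at 0.36 to 0.55 in all. It was also kept without control replicate 1 (limma adjusted p = 0.0489) and was lost without any of the other 10 libraries (limma adjusted p up to 0.134, without BPS2 replicate 3) and with the GC trend removed (limma adjusted p = 0.0596). BPS1 minus control was -0.02 (95% interval -0.26 to 0.22). The table has a single row for CREM, which GENCODE release 29 gives 48 transcripts, so ICER cannot be told from the longer forms.

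**Figure D2:**
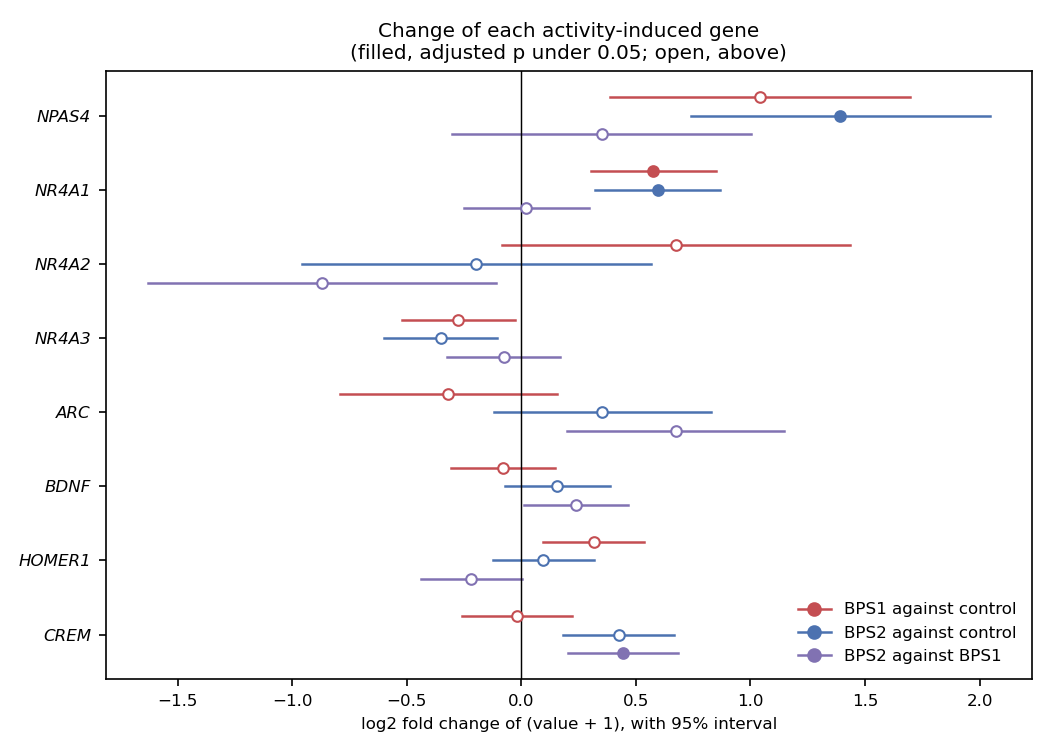
Log2 fold change of each of the 8 genes in the 3 comparisons, with the 95% interval of the limma fit (horizontal axis, log2 of value + 1). Filled points passed at an adjusted p under 0.05: NR4A1 against control in BPS1 (0.58) and BPS2 (0.60), NPAS4 in BPS2 (1.39), and CREM between BPS2 and BPS1 (0.44).

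Of ARC, HOMER1 and BDNF, whose proteins act at synapses, limma passed 0 of 3 in each comparison. At an unadjusted p under 0.05 there was 1 in BPS1 against control (HOMER1), 0 in BPS2 against control and 2 between BPS2 and BPS1 (ARC and BDNF). ARC, a capsid-like protein that controls AMPA receptor uptake (ENSG00000198576, chromosome 8, 142611044 to 142614472, minus strand), held 208, 223, 240 and 347 in control, 137, 213, 187 and 291 in BPS1, and 364, 363, 256 and 306 in BPS2. Ranges of all 3 groups overlapped, BPS1 being lowest and BPS2 highest by mean (207 ± 64.3, 255 ± 63.2 in control and 322 ± 51.8). ARC was 0.67 ± 0.22 higher in BPS2 than in BPS1 (limma adjusted p = 0.120). Without BPS1 replicate 4 that difference was 0.85 and passed (limma adjusted p = 0.0214), where 8.63% of all genes did. With the GC trend removed it was 0.70 (limma adjusted p = 0.0717). It passed in 3 of 24 alternatives and in 1 of 12 single omissions. Against control the log2 differences were -0.32 ± 0.22 in BPS1 and 0.35 ± 0.22 in BPS2 (limma adjusted p = 0.432 and 0.600).

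HOMER1, a scaffold that links metabotropic glutamate receptors to calcium stores and whose short form is the activity-induced product (ENSG00000152413, chromosome 5, 79372636 to 79514217, minus strand), held 470, 595, 538 and 592 in control, 689, 759, 689 and 592 in BPS1, and 631, 605, 545 and 558 in BPS2. BPS1 replicates 1, 2 and 3 were above all control and BPS2 libraries, and BPS1 replicate 4 was among the controls. BPS1 minus control was 0.31 ± 0.10 (limma adjusted p = 0.0796), and BPS2 minus control was 0.10 ± 0.10 (limma adjusted p = 0.798). It passed in BPS1 without BPS1 replicate 4 (0.38, limma adjusted p = 0.0249) and with the GC trend removed (0.33, limma adjusted p = 0.0250). Of all genes 11.6% and 10% passed in those settings. The BPS1 difference passed in 4 of 24 alternatives and in 1 of 12 single omissions. Without control replicate 1 and BPS1 replicate 4, BPS2 minus BPS1 was -0.29 and passed (limma adjusted p = 0.0258), where 17.4% of all genes did. That difference passed in 2 of 24 alternatives and in 0 of 12 single omissions. The table does not separate the short form from the long one.

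BDNF, the secreted ligand of the receptor TrkB (ENSG00000176697, chromosome 11, 27654893 to 27722058, minus strand), had the closest group means. It held 351, 298, 291 and 297 in control, 328, 254, 269 and 322 in BPS1, and 345, 339, 327 and 364 in BPS2. BPS2 was above controls 2, 3 and 4 but not control replicate 1, and it met BPS1 where BPS2 replicate 3 (327) fell just under BPS1 replicate 1 (328). The log2 difference was -0.08 in BPS1 (95% interval -0.31 to 0.15) and 0.16 in BPS2 (95% interval -0.07 to 0.38). BPS2 minus BPS1 was 0.24 ± 0.11 (limma adjusted p = 0.271). BDNF-AS, transcribed across BDNF from the other strand, held 13.8 to 37.7, and whether reads were counted by strand is not given in the sources used here.

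By mean level the groups stood in different orders from gene to gene. Control was lowest and BPS2 highest for NPAS4 and NR4A1, with BPS1 and BPS2 not distinguished for either gene. BPS1 was lowest and BPS2 highest for ARC, BDNF and CREM, and of the neighbouring groups in these genes none differed beyond the test. HOMER1 was highest in BPS1, NR4A2 was highest in BPS1 and lowest in BPS2, and NR4A3 was highest in control and lowest in BPS2, with no pair of groups passing. In BPS2 3 of the 8 genes, NPAS4, NR4A1 and CREM, had all libraries above all controls, a pattern found upward in 5.41% of all genes tested. In BPS1 1 of 8, NR4A1, did so, beside 7.50% of all genes. No gene of the set had all libraries of either treated group below all controls. That pattern was found in 6.81% of all genes in BPS1 and 4.23% in BPS2, so that 0 of 8 is near the background.

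**Figure D3:**
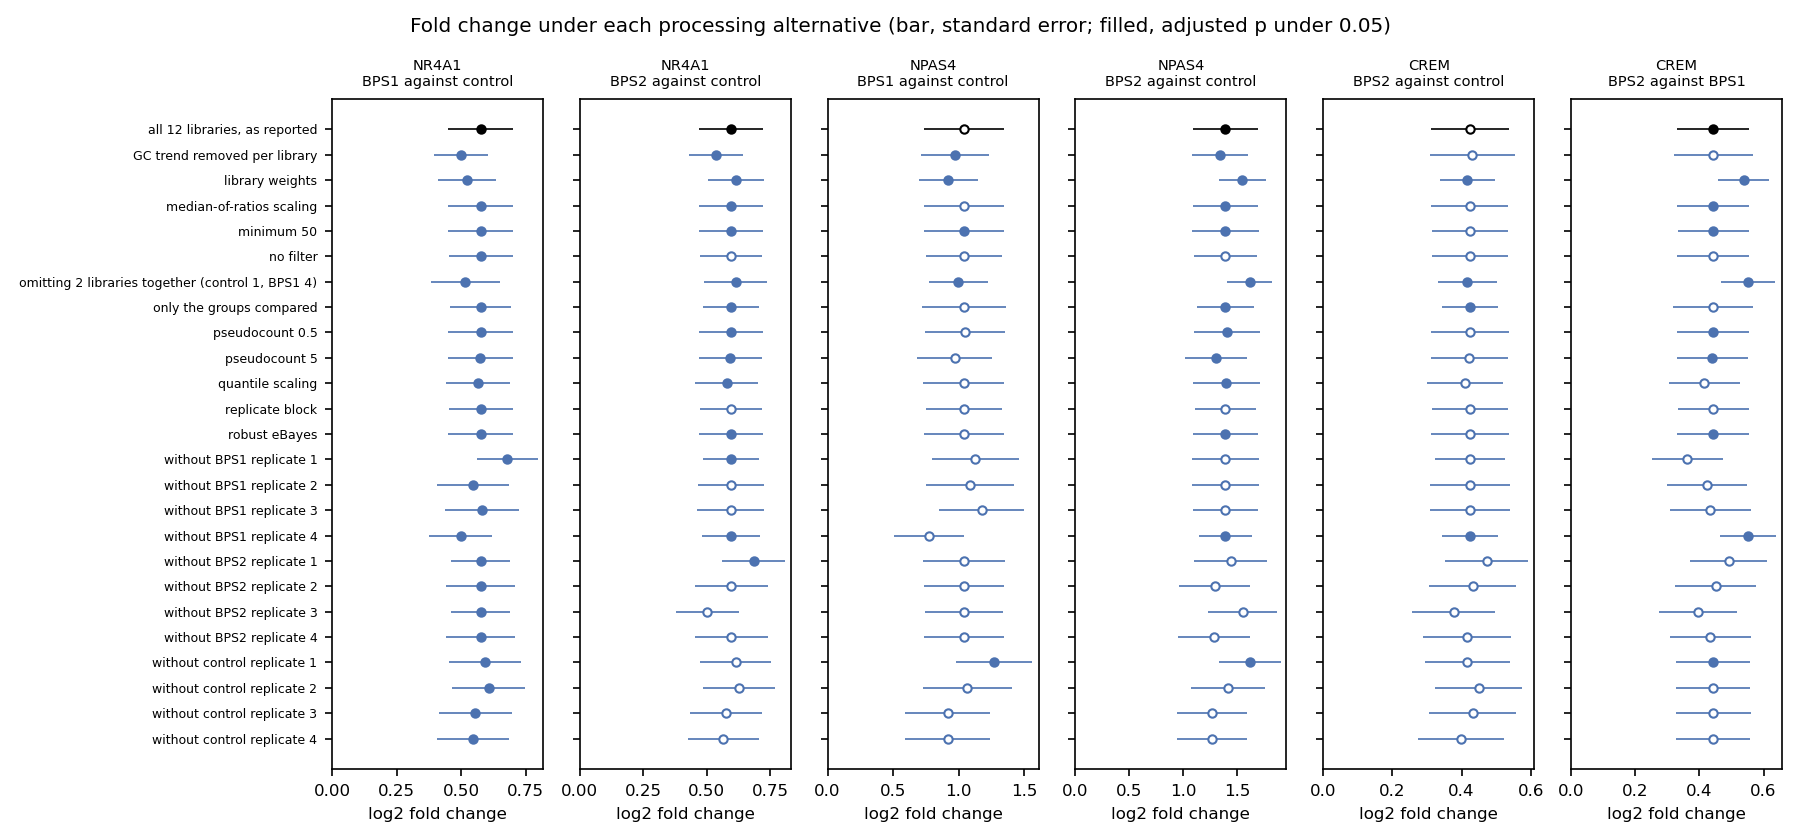
Log2 fold change (horizontal axis) of NR4A1, NPAS4 and CREM under the reported fit and each of 24 alternatives, with its standard error. Filled points have an adjusted p under 0.05. All values are above 0. NR4A1 in BPS1 is filled throughout, and NPAS4 in BPS2 is filled in 12 of the 24.

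Genes that followed the same pattern over the 12 libraries were sought among 12762 tested genes with a mean of at least 50. Nearest to NR4A1 were DUSP4, a phosphatase that switches off ERK kinases (Pearson's r = 0.969), the retinol transporter gene STRA6 (r = 0.958) and CRCP (r = 0.956). DUSP4 averaged 349 in control libraries and 561 in either treated group. Nearest to NPAS4 were TUSC2 (r = 0.956), B3GALT6 (r = 0.952) and SMN2 (r = 0.939). TUSC2 and B3GALT6 have a transcript GC content of 62.4% and 64.2%, and both were highest in BPS1 replicate 4 (2073 and 635) and, among controls, in control replicate 1 (1346 and 384). SMN2 shares nearly all its sequence with SMN1, so its reads are uncertain. These genes were chosen for their likeness over the same 12 libraries, which share groups and library effects, so coefficients and levels are descriptions with no test.

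Of 31 tested genes on a list of other activity and cAMP targets, 7 rose and 1 fell in BPS1, and 4 rose and 1 fell in BPS2. That is 25.8% and 16.1% of the list, beside 8.60% and 1.21% of all genes. The median log2 fold change was 0.20 and 0.15. Without control replicate 1 and BPS1 replicate 4, 29 of the list were tested, with 7 rising and 2 falling in BPS1 and 11 rising and 1 falling in BPS2, where 13.7% and 9.54% of all 20161 genes then tested passed. The list was assembled with results of these data known, so it gives no independent support. The 7 that rose in BPS1 were SCG2, VGF, CRH, MAFF, IRS2, PDE4B and CSRNP1, and SCG2, VGF, CRH and MAFF rose in BPS2. CRH, MAFF, PDE4B and CSRNP1 were named after their values were seen.

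SCG2, which encodes the dense-core vesicle protein secretogranin II, held 1162, 1069, 1060 and 942 in control, 1850, 2266, 2107 and 2755 in BPS1, and 1971, 2154, 2220 and 2087 in BPS2. Every treated library was above every control, and the rise was 1.07 ± 0.11 in BPS1 and 1.00 ± 0.11 in BPS2 (limma adjusted p = 7.96e-05 and 9.55e-04). VGF, a neuropeptide precursor induced by neurotrophins and depolarisation, averaged 195 ± 20.3 in control and rose to 531 ± 154 in BPS1 and 437 ± 68.9 in BPS2 (1.41 ± 0.18 and 1.15 ± 0.18, limma adjusted p = 4.38e-04 and 0.00706). IRS2, an insulin receptor adaptor that CREB is known to induce, rose in BPS1 from 731 ± 33.0 to 1119 ± 57.7 (0.61 ± 0.07, limma adjusted p = 2.56e-04) and stood at 918 ± 53.3 in BPS2 (limma adjusted p = 0.0506, and 0.0148 without control replicate 1 and BPS1 replicate 4). The IRS2 difference in BPS2 was 0.30 with the GC trend removed (limma adjusted p = 0.179), and it passed in 4 of 24 alternatives. IRS2 was lower in BPS2 than in BPS1 (-0.28, limma adjusted p = 0.0484), a call lost with the GC trend removed (limma adjusted p = 0.120) and without 10 single libraries (limma adjusted p up to 0.145, without BPS2 replicate 4). RGS4, which shortens signalling by G-protein-coupled receptors, was the list's fall, from 39661 ± 2536 to 26769 ± 1961 in BPS1 and 32205 ± 891 in BPS2 (-0.57 ± 0.07 and -0.30 ± 0.07, limma adjusted p = 1.96e-04 and 0.0456). The RGS4 call in BPS2 was lost without 9 of the 12 single libraries (limma adjusted p up to 0.166, without BPS2 replicate 3). CRH, the corticotropin-releasing hormone gene, rose from 22.0 ± 6.95 to 52.5 ± 19.4 with BPS1 and 105 ± 28.4 with BPS2 (limma adjusted p = 0.0326 and 0.00396). Its BPS1 call was lost without 6 single libraries (limma adjusted p up to 0.0876, without control replicate 4) and without control replicate 1 and BPS1 replicate 4 together (0.97, limma adjusted p = 0.0853).

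**Figure D4:**
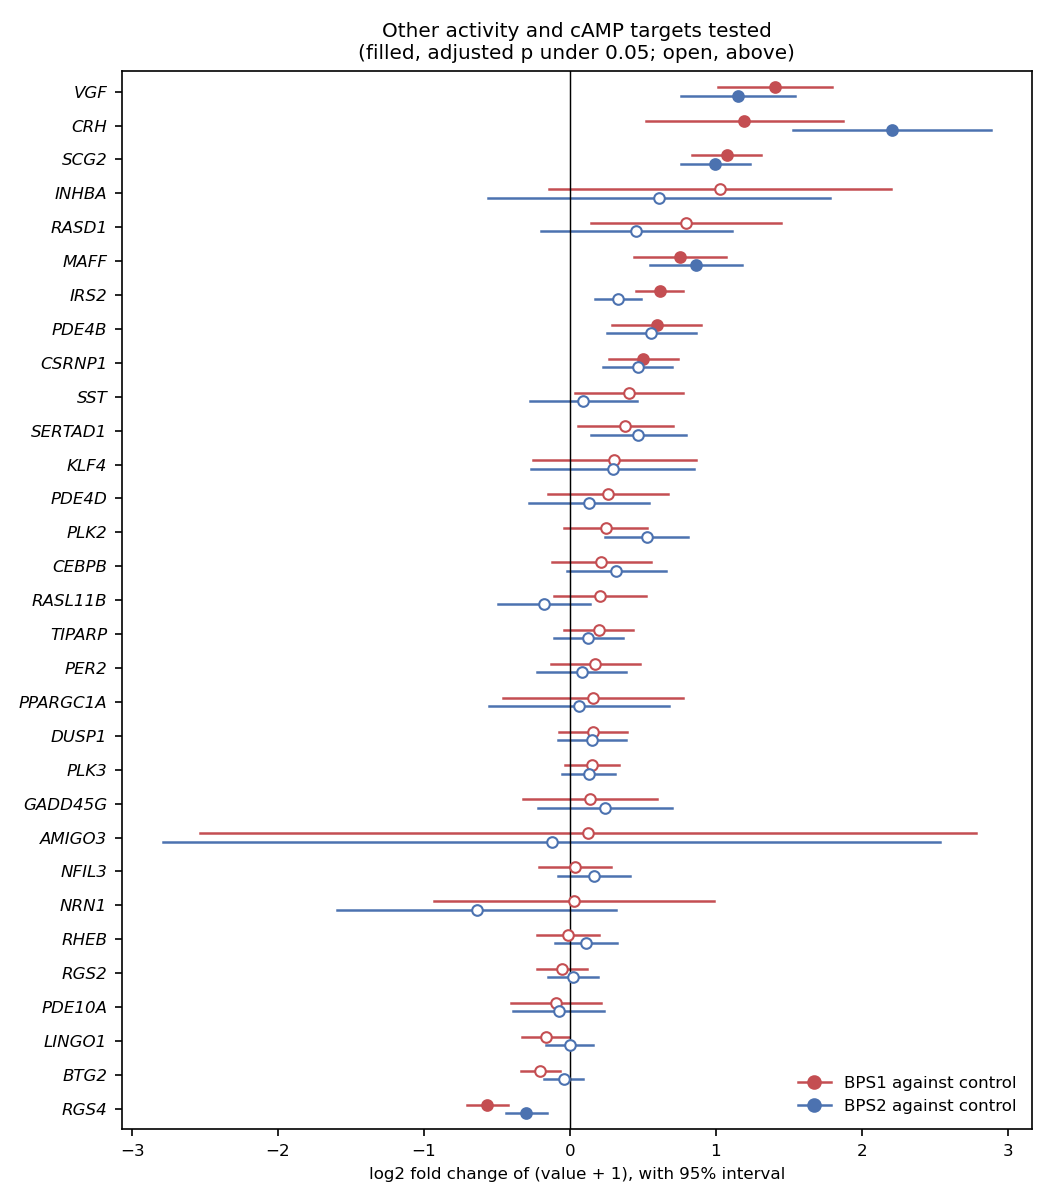
Log2 fold change (horizontal axis, with 95% interval) of the 31 tested genes on the list of other activity and cAMP targets, in BPS1 (red) and BPS2 (blue) against control, ordered by BPS1. Filled points passed at an adjusted p under 0.05. VGF (1.41 and 1.15), SCG2 (1.07 and 1.00) and CRH lie highest and RGS4 lowest. Both comparisons use the same control libraries.

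EGR1 and FOS are immediate early factors of the EGR and AP-1 families. EGR1 rose from 66.3 ± 14.0 to 161 ± 32.5 in BPS1 and 155 ± 37.5 in BPS2 (limma adjusted p = 0.00256 and 0.0141), the BPS2 call being lost without BPS2 replicate 3 (limma adjusted p = 0.0511) and 1 other library. FOS held 51.7, 245, 44.8 and 32.9 in control, so that control replicate 2 fell in the range of the treated libraries (174 to 607). FOS rose in BPS1 (2.38, limma adjusted p = 0.0163, lost without 2 single libraries, up to 0.0520 without control replicate 3), and its BPS2 difference of 2.42 missed the threshold (limma adjusted p = 0.0513). That difference passed with the GC trend removed (2.38, limma adjusted p = 0.0468). It also passed without control replicate 1 and BPS1 replicate 4 (2.31, limma adjusted p = 0.0399). In all it passed in 7 of 24 alternatives and in 3 of 12 single omissions.

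Upstream, genes of the calcium and cAMP inputs mostly did not pass. Of 35 tested, 1 rose and 4 fell in BPS1, and 1 fell in BPS2, which is 14.3% and 2.86% of the list beside 8.60% and 1.21% of all genes. The median log2 fold change was -0.07 and -0.03. GRIN1, the obligatory subunit of NMDA receptors, fell in BPS1 from 2414 ± 242 to 1676 ± 153 (-0.53 ± 0.09, limma adjusted p = 0.00373). CAMK4, a nuclear kinase that phosphorylates CREB, fell in BPS1 from 7605 ± 1107 to 4788 ± 1059 (-0.69 ± 0.15, limma adjusted p = 0.0156), a call lost without control replicate 2 (limma adjusted p = 0.0526). CAMKK2, the kinase that activates CAMK4, fell in BPS1 by 0.23 (limma adjusted p = 0.0256), and not without control replicate 2 (limma adjusted p = 0.0747) or 4 other libraries. CAMK2B, a synaptic calcium kinase, fell in both, from 144 ± 22.5 to 93.8 ± 4.40 in BPS1 and 86.5 ± 15.8 in BPS2 (limma adjusted p = 0.0289 and 0.0367). Its calls were lost without 6 single libraries in BPS1 (limma adjusted p up to 0.0732, without BPS1 replicate 2), with control replicate 1 and BPS1 replicate 4 both omitted (limma adjusted p = 0.0515), and without 11 in BPS2 (limma adjusted p up to 0.108, without control replicate 3).

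Of 19 tested CREB, SRF and MEF2 family genes and cofactors, 2 rose and 1 fell in BPS1, 15.8% of the list beside 8.60% of all genes. In BPS2, where 1.21% of all genes passed, the limma test passed 0 of 19, with 3 at an unadjusted p under 0.05. MEF2D, an activity-regulated factor, rose in BPS1 from 1209 ± 148 to 1810 ± 193 (0.58 ± 0.10, limma adjusted p = 0.00369), and HDAC9, a deacetylase that represses MEF2, fell from 1514 ± 331 to 993 ± 156 (-0.59 ± 0.15, limma adjusted p = 0.0280). ELK3, a partner of SRF, rose by 0.32 (limma adjusted p = 0.0394). The HDAC9 call was lost without 5 single libraries (limma adjusted p up to 0.0740, without control replicate 3) and that of ELK3 without 10 (limma adjusted p up to 0.109, without BPS1 replicate 2). Without control replicate 1 and BPS1 replicate 4, a setting in which 9.54% of all genes passed in BPS2, MEF2D, HDAC9 and ELK3 also passed in BPS2 (0.27, -0.75 and 0.21, limma adjusted p = 0.0350, 0.00272 and 0.0466), as did CAMK4 and CAMKK2 (-0.35 and -0.17, limma adjusted p = 0.0127 and 0.0403). With all 12 libraries none of these genes passed in BPS2 (limma adjusted p = 0.176, 0.0876, 0.285, 0.596 and 0.248 in that order). None passed there with the GC trend removed, and each passed in 1 to 3 of the 24 alternatives. GRIN1 missed the threshold in BPS2 (-0.30, limma adjusted p = 0.187) and passed there with the GC trend removed (-0.38, limma adjusted p = 0.0347). That BPS2 difference did not pass without control replicate 1 and BPS1 replicate 4 (limma adjusted p = 0.0714). It passed in 2 of 24 alternatives and in 0 of 12 single omissions.

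Among 23 tested partners and receptors of the member proteins, 2 rose in BPS1 (8.70% of the list beside 8.60% of all genes), and in BPS2 1 rose and 1 fell (8.70% beside 1.21%). The BPS1 share is at the background. Both changes in BPS2 were in neurotrophin receptors. NGFR (p75), which binds pro-neurotrophins, rose from 72.6 ± 7.37 to 117 ± 7.42 in BPS1 and 112 ± 7.07 in BPS2 (0.68 ± 0.11 and 0.62 ± 0.11, limma adjusted p = 0.00240 and 0.0172). NTRK2, which encodes TrkB, fell from 43.9 ± 6.97 to 22.0 ± 1.67 in BPS2 (-0.96 ± 0.17, limma adjusted p = 0.0176) and stood at 31.2 ± 4.93 in BPS1 (limma adjusted p = 0.118). The BPS2 calls were lost without 6 single libraries for NGFR (limma adjusted p up to 0.0740, without BPS2 replicate 3) and 5 for NTRK2 (limma adjusted p up to 0.0732, without control replicate 3). ITPR3, an IP3 receptor of the calcium stores to which HOMER proteins link glutamate receptors, held 39.9, 38.7, 38.0 and 37.1 in BPS1 against 5.39 to 13.6 in control and 3.83 to 10.7 in BPS2. ITPR3 met the level needed for testing through its BPS1 libraries, so its place among the 2 that rose is a description.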

How the data were processed

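Total RNA of KELLY cells was sequenced in 12 libraries, 3 groups of 4. Salmon 0.8.2, FastQC 0.11.7, GRCh38 and DESeq2 are listed, without roles, per the submitters' processing notes. The sources used here do not state whether counting used strand. The authors deposited a single table of normalized counts per gene (unit: signal), which the file header names by sample. Values were not whole reads and reads could not be recovered, so no count test was run. Library totals were 29.6 to 33.3 M; the size of 1 read could be estimated (0.940 to 1.09 per library), but the members' values were fractional at a tolerance of 0.01 reads in all but 1 case (HOMER1 in 1 library), so no counting interval is given.

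Gene positions and symbols came from GENCODE release 29 identifiers (GRCh38). Genes that reached 10 in 4 or more libraries (20454 of 55771) were fitted as log2(value + 1) with limma 3.58.1 in R 4.3.3, group as the only term, all 12 libraries sharing 1 estimate of spread and a trended prior, and p-values adjusted by Benjamini-Hochberg over all genes tested, in 3 comparisons. On simulated data of 20454 genes, 2-fold changes were found in 69 of 100 genes for BPS1 against control and 60 of 100 for BPS2 against control, and 1.5-fold changes in 29 and 27 of 100, with 1 false call each.

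The members and gene lists were chosen with earlier results of these data known. Named genes are the 8 members, up to 4 passing genes of each list with the smallest p, FOS, EGR1, NEAT1, and the 3 genes nearest in pattern to each member that passed against control. CRH, MAFF, PDE4B and CSRNP1 fall outside this rule. Alternatives covered scaling, filter, pseudocount, weights, block, samples fitted and each library omitted. Removal of a GC trend per library, and list counts under each alternative, were added after seeing the data. Values of some single genes on the lists are not reported here.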

Additional observations from a re-analysis of the deposited data

Results flagged for a closer look

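A library far from the other 3 of its group was found in 4 of the 24 combinations of gene and group looked at, where chance gives about 5%. NPAS4 in BPS1 was highest in replicate 4, at 141.7 against 60.5 to 73.2. NR4A3 in BPS1 was lowest in the same library, at 155.9 against 183 to 188. That library stood apart over all genes, and the part of this in both values was not tested. NR4A2 in BPS2 was lowest in replicate 4, at 11.3 against 17.9 to 19.1. BDNF in control was highest in replicate 1, the control library that stood apart, at 350.6 against 291 to 298.

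CREM differed between the oligonucleotides in the reported fit: BPS2 minus BPS1 was 0.44 on the log2 scale (limma adjusted p = 0.0435). All 4 BPS2 libraries lay above BPS1 replicates 1, 2 and 3, but BPS1 replicate 4 (725) exceeded BPS2 replicate 1 (712). The call held in 9 of 24 alternatives and was lost with the GC trend removed (limma adjusted p = 0.0596). Against control CREM passed with neither oligonucleotide (limma adjusted p = 0.947 in BPS1 and 0.107 in BPS2).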

How the results depend on the processing

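With 24 alternatives, the BPS1 rise of NR4A1 was the one call of the set that passed under each, and the direction of every called gene was kept. With 4 libraries a group, the calls of NR4A1 and NPAS4 in BPS2 and of CREM between oligonucleotides lie near the threshold; the cause of their losses was not tested.

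Of the 8 genes, 1 passed for BPS1 against control, where 8.60% of all genes did. With the GC trend removed 3 passed (10% of all genes), and with library weights 4 (16.5%). At a minimum of 50, 2 of the 7 then tested passed (12.5%). With control replicate 1 and BPS1 replicate 4 omitted 3 passed (13.7%). For BPS2 against control 2 passed (1.21% of all genes). With library weights 4 passed (6.34%), with those libraries omitted 4 (9.54%) and without a filter 0 (0.41%). For BPS2 against BPS1 1 passed (3.93% of all genes), beside 4 with library weights (17.7%) and 3 with those libraries omitted (17.4%). The count was 0 with the GC trend removed (4.96%), without a filter (1.34%), with quantile scaling (4.38%) or with only the groups compared (2.86%). Omitting single libraries gave 1 to 2, 0 to 3 and 0 to 2 in the same order. Over all genes 1760, 247 and 803 passed. Library weights gave 3382, 1296 and 3626, omitting both libraries gave 2772, 1923 and 3498, and fitting only the groups compared gave 927 for BPS1. Single omissions gave 1103 to 2359, 113 to 535 and 471 to 1756, the highest of each without BPS1 replicate 4.

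Same-numbered libraries did not deviate together (correlations of -0.272 to 0.103, 1 of 12 pairs over 0.1, and 0 of 12 libraries closest to their own number). Control replicate 1 and BPS1 replicate 4, which stood apart, correlated with each other at 0.424. They carry different numbers, so these correlations cannot exclude a pairing by number. With the replicate block, 0 of the 8 genes passed for BPS2 against control and 0 for BPS2 against BPS1, and over all genes 1067, 118 and 447 passed.

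Differences near 0 that were not called changed sign. CREM in BPS1 ranged from -0.127 to 0.0612 over single omissions, with 0.00105 without BPS1 replicate 2 and 0.00640 without control replicate 2. NR4A1 between oligonucleotides ranged from -0.0824 to 0.110, with -0.07 without BPS2 replicate 3. NR4A2 in BPS2 ranged from -0.52 to 0.00184, the latter without control replicate 1, and was 0.00543 with library weights and 0.00184 with both libraries omitted.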
